A study of Mus musculus with 12 samples.

Results

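The genes of 10 major acute phase plasma proteins were followed in mouse liver: Saa1, Saa2, Saa3, Saa4, Hp, Hpx, Orm1, Orm2, Itih4 and A2m. They were chosen by name, and each of the 10 symbols matched 1 row among the 11289 genes of the expression table. The table holds liver RNA of 12 C57BL/6J mice, 8 to 10 weeks old per the labels (the study's methods give a younger range), in 3 groups of 4. The Con A + PBS group received concanavalin A (Con A), a T cell-activating lectin from jack bean, at 15 mg/kg into the tail vein, and PBS 30 min later. The Con A + hWJ-MSCs group received the same lectin and then human umbilical cord mesenchymal stromal cells, named for Wharton's jelly, by vein. The labels call the remaining group control and describe no injection for it. Livers were taken 24 h later, and libraries were made from whole tissue, so that fewer cells of a type and less RNA per cell cannot be told apart.

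In the acute phase response, cytokines released by immune cells reach hepatocytes and change which plasma proteins they secrete. Interleukin 6 family cytokines act through the shared receptor chain gp130 and the factor STAT3, while interleukin 1 and TNF act through NF-κB and C/EBP factors. Serum amyloid A proteins, haptoglobin, hemopexin and the orosomucoids are secreted in larger amounts in this state, whereas albumin, transthyretin and some carriers are secreted less.

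The values were whole-number scores that had been normalized between mice, not counts, and their depth is unknown. In each mouse 10 genes shared the largest score, 341028. Down to rank 8024 the sorted scores were identical in all 12 mice, and the highest of them fell into 10 ladders of fixed scores. Each place on a ladder was held by 1 gene in each mouse (ladders 2 and 3 share scores and were read together). Of 1344 genes with a score on the 81 places that could be read, 1290 (96%) stayed on 1 ladder, and the median GC content of the transcripts ran from 43.6% on ladder 4 to 56.8% on ladder 8. A high score therefore gives the place of a gene among about 1128 genes, and a difference near the top is a step between fixed scores. Scores are not per length, so a place does not rank transcripts by number. Of the 120 scores of the 10 genes, 25 were at the largest score, with 0 in the control group, 9 in the Con A + PBS group and 16 in the Con A + hWJ-MSCs group.

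The 4 serum amyloid A genes lie within 42317 bases of chromosome 7 in mm10, in the order Saa3, Saa4, Saa1 and Saa2. Saa1 (46740501 to 46742980, minus strand) and Saa2 (46751833 to 46754314, plus strand) face away from each other, with starts 8853 bases apart. Saa3 lies at 46711998 to 46715676 and Saa4 at 46728017 to 46732543, both on the minus strand. The listed transcripts of Saa1 and Saa2 are 93.9% identical, with a longest identical run of 99 bases, while Saa1 and Saa3 share 64.6%. Reads of Saa1 and Saa2 can thus be split between the pair in an uncertain way, and RefSeq lists each of the 2 names as a synonym of the other gene. The 250 bases before each RefSeq start (GRCm38.p6) are shown because these neighbours differed widely in their response. Capitals mark matches to the C/EBP letters TTGCNNAA on either strand.

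Saa1, chr7:46742981-46743230, minus strand: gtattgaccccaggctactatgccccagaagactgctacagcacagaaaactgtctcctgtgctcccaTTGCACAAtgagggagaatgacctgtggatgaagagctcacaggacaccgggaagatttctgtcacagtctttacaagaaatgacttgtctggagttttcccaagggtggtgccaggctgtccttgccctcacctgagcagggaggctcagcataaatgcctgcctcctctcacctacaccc

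Saa2, chr7:46751583-46751832, plus strand: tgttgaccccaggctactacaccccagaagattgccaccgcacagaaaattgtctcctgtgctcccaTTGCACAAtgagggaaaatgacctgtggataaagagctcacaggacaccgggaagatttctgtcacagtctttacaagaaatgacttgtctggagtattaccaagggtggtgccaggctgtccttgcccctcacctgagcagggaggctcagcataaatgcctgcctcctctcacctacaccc

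Saa3, chr7:46715677-46715926, minus strand: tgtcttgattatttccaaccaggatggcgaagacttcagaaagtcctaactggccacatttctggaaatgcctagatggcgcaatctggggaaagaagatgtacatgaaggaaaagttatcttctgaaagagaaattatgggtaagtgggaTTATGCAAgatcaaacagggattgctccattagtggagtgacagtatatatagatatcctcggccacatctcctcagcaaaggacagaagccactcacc

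Saa4, chr7:46732604-46732853, minus strand: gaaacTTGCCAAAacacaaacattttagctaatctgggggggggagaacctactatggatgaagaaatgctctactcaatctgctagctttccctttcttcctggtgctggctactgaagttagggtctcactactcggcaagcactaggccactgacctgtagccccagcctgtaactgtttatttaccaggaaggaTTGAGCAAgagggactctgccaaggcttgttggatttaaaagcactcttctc

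Over these 250 bases Saa1 and Saa2 were 94.8% identical, and Saa1 and Saa3 50.2%. The C/EBP letters stood at -182 to -175 in Saa1 and -183 to -176 in Saa2, both as TTGCACAA. They stood at -99 to -92 in Saa3, and at -245 to -238 and -52 to -45 in Saa4, whose RefSeq start is 60 bases from the start in the table. RefSeq sequence was matched for 7 of the 10 genes (not for Hp, Orm1 and A2m), of which 6 held the C/EBP letters, against 9.57% of 32536 promoter sequences of the same length. The STAT letters TTCNNNGAA, read on both strands and found in 7.04% of those sequences, were held by Itih4 alone of the 7, as TTCCGAGAA at -51 to -43. The κB consensus, found in 7.28%, had no match in these 7 windows. Such matches describe letters and say nothing of the binding of a factor.

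All 10 genes were higher in the Con A + PBS group than in the control group. A gene was called where limma gave a fold change above 1.5 with an adjusted p (Benjamini-Hochberg) below 0.05. Each of the 10 was called, beside 19.5% of all 11289 genes called higher and 19.2% called lower. The median log2 fold change of the 10 genes was 4.50 (range 0.93 to 10.26), against 0.05 over all genes. Every gene of the table reached 64 in at least 2 mice, and Saa3 and A2m were below 64 in every control mouse. Both are thus in the table only through mice given Con A, so their being higher was largely fixed beforehand. In 8 of the 10 genes all Con A + PBS mice lay above all control mice, a separation in this direction found in 27.1% of all genes. Two-sided exact permutation tests gave p = 0.0286 for these 8, the smallest that 4 mice against 4 allow, and p = 0.143 for Saa4 and Itih4.

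Saa1 and Saa2 encode the acute serum amyloid A proteins, which travel on high-density lipoprotein. Saa1 had scores of 1774, 3001, 3038 and 851 in control mice 1 to 4 and 147628, 147628, 147628 and 44442 in Con A + PBS mice 1 to 4. Con A + PBS mouse 4 was the lowest of its group and still far above every control mouse. The difference was 5.83 on the log2(score + 1) scale (SE 0.44, limma adjusted p = 9.04e-07). Saa2 had 1746, 2138, 2304 and 678 in the control group and 341028, 341028, 341028 and 72682 in the Con A + PBS group, a log2 difference of 7.22 (SE 0.49, limma adjusted p = 4.73e-07). In 3 of the 4 Con A + PBS mice Saa2 was thus at the largest score, beyond which no further rise can be seen. On ladder 8 these genes held the first and second place in Con A + PBS mice 1 to 3, followed by Lcn2, the iron-siderophore binder lipocalin 2, and Apoe. In Con A + PBS mouse 4, Lcn2 and Apoe held places 1 and 2, Saa2 place 3 and Saa1 place 5.

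Saa3, a serum amyloid A gene that is also expressed outside hepatocytes, was among the lowest-scoring genes of the control group. Its scores were 49, 52, 58 and 35 in the control group, ranks 10482 to 10939 of 11289. After Con A they were 72724, 72724, 72724 and 20871, ranks 26 to 96. The log2 difference was 10.09 (SE 0.38, limma adjusted p = 4.9e-09). Saa4, the constitutive member of the family, had 2026, 2362, 3273 and 2448 in the control group and 8248, 7626, 8544 and 1950 after Con A. Its groups overlapped, because Con A + PBS mouse 4 lay below every control mouse. The log2 difference of Saa4 was 1.19 (SE 0.40, limma adjusted p = 0.0225). That call was lost in 4 of the 12 fits that left out 1 mouse (without control mouse 1 or Con A + PBS mouse 1, 2 or 3), and without Con A + PBS mouse 4 the difference was 1.71.

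**Figure D1:**
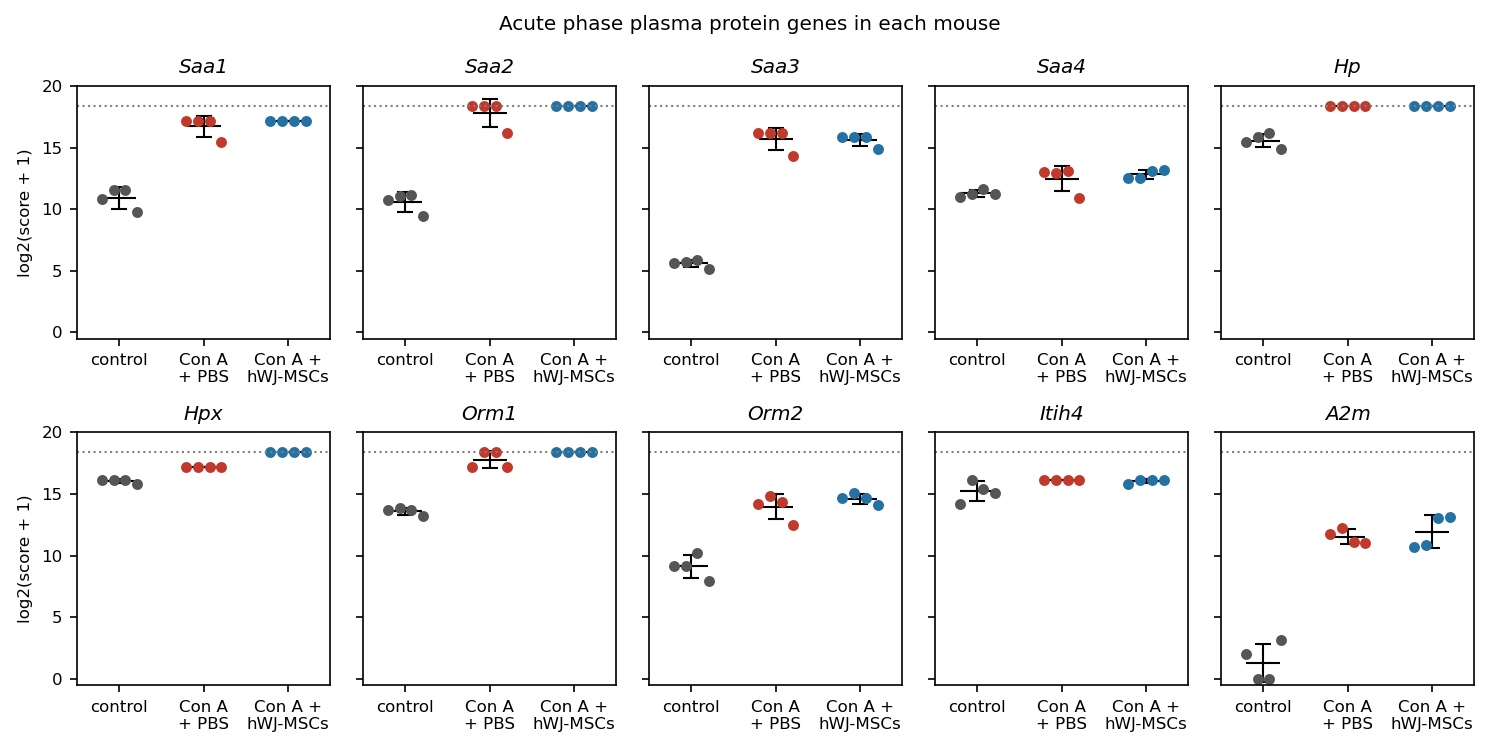
Scores of the 10 genes in each mouse as log2(score + 1), with mice 1 to 4 from left to right in each group; black bars are the group mean ± SD (n = 4) and the dotted line is the largest score, 341028. All Con A + PBS mice lie above all control mice in 8 panels, and in Hp all 8 Con A-treated mice sit on the dotted line.

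Hp and Hpx encode scavengers of products of red cell lysis. Haptoglobin, from Hp (chromosome 8, 109575130 to 109579172, minus strand), binds free hemoglobin, and hemopexin, from Hpx (chromosome 7, 105591613 to 105600116, minus strand), binds free heme. Hp had scores of 44484, 58067, 72700 and 29649 in the control group and 341028 in all 8 mice given Con A. It moved from places 3 to 7 of ladder 7 to the first, a log2 difference of 2.81 (SE 0.24, limma adjusted p = 2.12e-06) that the largest score limits. Hpx had 72606, 72606, 72606 and 57910 in the control group and 147377 in all 4 Con A + PBS mice. This was a move from place 3 or 4 to place 2 of ladder 10, and a log2 difference of 1.10 (SE 0.15, limma adjusted p = 6.05e-05). The gene Serpina1b held place 2 in all 4 control mice and place 4 in all 4 Con A + PBS mice (log2 difference -1.35). When a gene leaves place 2, those below it move up. The step of Hpx is therefore not a measured ratio, and how far Hpx itself moved cannot be read from it.

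The orosomucoids, or alpha-1-acid glycoproteins, bind drugs and small lipophilic molecules in plasma. Orm1 (63344560 to 63348163) and Orm2 (63362449 to 63365878) follow each other on the plus strand of chromosome 4, with 14286 bases between them. Their transcripts are 91% identical with a longest identical run of 141 bases, so their reads too may be shared. Orm1 had 13253, 15125, 13253 and 9428 in the control group and 147960, 341028, 341028 and 147960 after Con A, a log2 difference of 4.16 (SE 0.29, limma adjusted p = 5.62e-07). The lower pair of these mice held the second place on the ladder. Orm2 had 575, 577, 1178 and 247 in the control group and 18904, 29649, 20852 and 5730 after Con A, a log2 difference of 4.85 (SE 0.50, limma adjusted p = 9.96e-06). Orm2 stayed below the largest score in all 12 mice, so its difference was not limited in this way.

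Itih4 and A2m encode secreted proteins linked to protease control. Itih4 (chromosome 14, 30886476 to 30901981, plus strand) belongs to the inter-alpha-trypsin inhibitor heavy chains, and A2m (chromosome 6, 121636173 to 121679237, plus strand) encodes alpha-2-macroglobulin, which traps proteases. Itih4 had 18904, 72700, 44484 and 34334 in the control group and 72700 in all 4 Con A + PBS mice. Control mouse 2 already had that score, so the groups met, and the log2 difference was 0.93 (SE 0.31, limma adjusted p = 0.0207), or 0.60 without control mouse 1. A2m was close to nothing in the control group, with scores of 3, 0, 0 and 8, and had 3542, 4932, 2222 and 2080 after Con A. Its log2 difference was 10.26 (SE 0.74, limma adjusted p = 7.45e-07). With 2 control mice listed at 0 this value depends on the pseudocount, and it was 7.93 with a pseudocount of 10.

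Next, the group given the stromal cells was compared with the Con A + PBS group. Of the 10 genes 1 was called, Hpx, which was higher with the cells. Over all genes 4.2% were called higher and 4.38% lower. The other 9 genes did not pass the test, and the median log2 difference of the 10 was 0.41 (range -0.12 to 1.21), against 0.00 over all genes. The median rests on 1 mouse, since it was 0.00 without Con A + PBS mouse 4. Hpx was also the 1 gene of the 10 whose groups did not overlap, a separation seen in either direction in 23.5% of all genes.

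Hpx had 147377 in all 4 Con A + PBS mice and 341028 in all 4 Con A + hWJ-MSCs mice. The log2 difference was 1.21 (SE 0.15, 95% interval 0.89 to 1.53, limma adjusted p = 0.00882), and a two-sided exact permutation test gave p = 0.0286, the smallest possible. The spread of Hpx within both of these groups was 0, so its SE rests on the control mice and on the other genes. Hpx was called in 12 of 12 fits that left out 1 mouse. The difference was 1.21 in each, since equal scores within both groups leave it nothing to move by. The whole difference was 1 step on ladder 10, where Hpx and Trf, the gene of the iron carrier transferrin, exchanged places. Trf was first and Hpx second in every Con A + PBS mouse, and Hpx first and Trf second in every Con A + hWJ-MSCs mouse. Trf was accordingly called lower, by a log2 difference of -1.21 (limma adjusted p = 0.00882). The scores of Hpx and Trf at these places are set by the ladder, so the size of the step is not a measured ratio, and how far either transcript moved cannot be read from it.

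**Figure D2:**
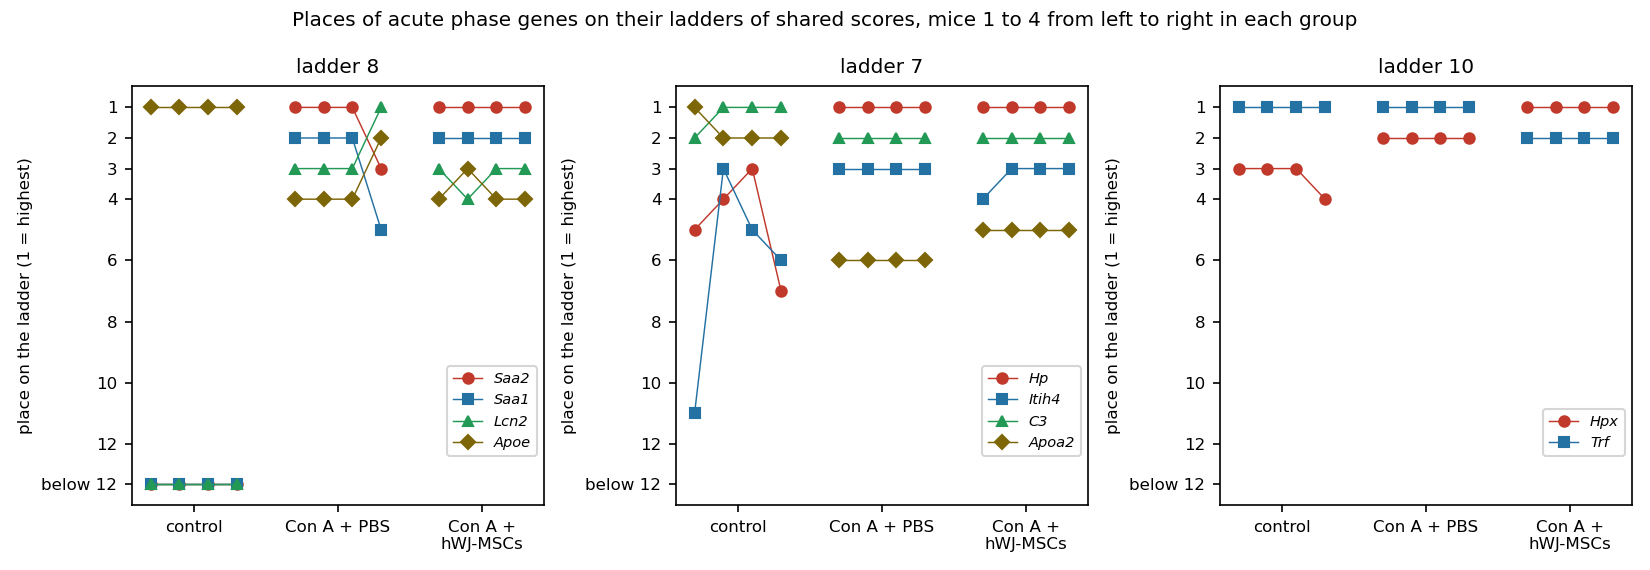
Place of 10 genes on ladders 8, 7 and 10 of shared scores (vertical axis, 1 = highest; places past the twelfth are drawn at the bottom), with mice 1 to 4 from left to right in each group. Hpx and Trf exchange places 1 and 2 between mice given Con A with the stromal cells and those given Con A with PBS, and in Con A + PBS mouse 4 Saa2 and Saa1 hold places 3 and 5 behind Lcn2 and Apoe.

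Saa1 had 147628 and Saa2 had 341028 in all 4 Con A + hWJ-MSCs mice, the same scores as in Con A + PBS mice 1 to 3. Their log2 differences were 0.43 (95% interval -0.51 to 1.38) and 0.56 (95% interval -0.50 to 1.62), and both were 0.00 without Con A + PBS mouse 4. That 0.00 is fixed by the ladder, since all 7 remaining mice then hold Saa2 at the largest score and Saa1 at the place behind it, so it does not measure a lack of difference. Saa3 had 58110, 58110, 58110 and 29668 with the cells, 1 place lower on ladder 6 in mice 1 to 3 than the first 3 Con A + PBS mice. Saa3 and Serpina1a exchanged places 3 and 4 between these mice, so the step is not a measured ratio of Saa3. The log2 difference of Saa3 was -0.12 (95% interval -0.93 to 0.70). Without Con A + PBS mouse 4 that of Saa3 was -0.57 (95% interval -1.08 to -0.06, limma adjusted p = 0.145), still short of the threshold. Saa4 had 5925, 5925, 8920 and 9428, with a log2 difference of 0.37 (95% interval -0.49 to 1.24) that became -0.14 without that mouse.

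For Hp all 8 mice were at the largest score, so no difference between these groups can be measured. Orm1 was at 341028 in all 4 Con A + hWJ-MSCs mice and in 2 of the 4 Con A + PBS mice, and its log2 difference of 0.60 had a 95% interval from -0.02 to 1.23 (limma adjusted p = 0.159). Orm1 shared the first 2 places of its ladder with the protease inhibitor gene Serpina3n in all 8 of these mice. Serpina3n was first in Con A + PBS mice 1 and 4 and second in the others, so its difference of -0.60 is the mirror image of that of Orm1 and not a separate measurement. Orm2 had 25790, 34334, 25790 and 17639 with the cells. The groups of Orm2 overlapped, and its log2 difference was 0.65 (95% interval -0.44 to 1.74), or 0.15 without Con A + PBS mouse 4. Itih4 had 58067, 72700, 72700 and 72700, a log2 difference of -0.08 (95% interval -0.75 to 0.58). A2m had 1696, 1818, 8535 and 8908, the lower pair of mice below and the higher pair above all Con A + PBS mice. The log2 difference of A2m was 0.38, with the widest interval of the 10 genes, -1.23 to 1.99. The intervals of Saa3, Saa4, Orm2, Itih4 and A2m, which were below the largest score in every mouse, all include 0, and their upper ends run from 0.58 for Itih4 to 1.99 for A2m. Those of Saa2 and Orm1 set no upper limit on a rise, because all 4 mice with the cells were at the largest score.

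All 10 genes remained higher in the Con A + hWJ-MSCs group than in the control group, against 13.6% of all genes called higher and 13.1% called lower. This comparison shares the control mice with that of Con A + PBS and control. Here too, Saa3 and A2m are in the table only through mice given Con A. In 9 of the 10 all Con A + hWJ-MSCs mice lay above all control mice, against 20.6% of all genes, and Itih4 was the exception. The log2 differences were 10.64 for A2m (8.31 with a pseudocount of 10), 9.98 for Saa3, 7.78 for Saa2, 6.26 for Saa1, 5.50 for Orm2, 4.76 for Orm1, 2.81 for Hp and 2.31 for Hpx, with limma adjusted p-values of 7.97e-06 or less. Saa2, Orm1, Hp and Hpx were at the largest score in all 4 mice with the cells, so their values are limited by it and cannot be ranked against the others. That of Saa4 was 1.57 (SE 0.40, limma adjusted p = 0.00801). The difference of Itih4, 0.85 (SE 0.31, limma adjusted p = 0.0416), was called in 3 of the 12 fits that left out 1 mouse, and it ran from 0.52 (without control mouse 1) to 1.16 in them.

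**Figure D3:**
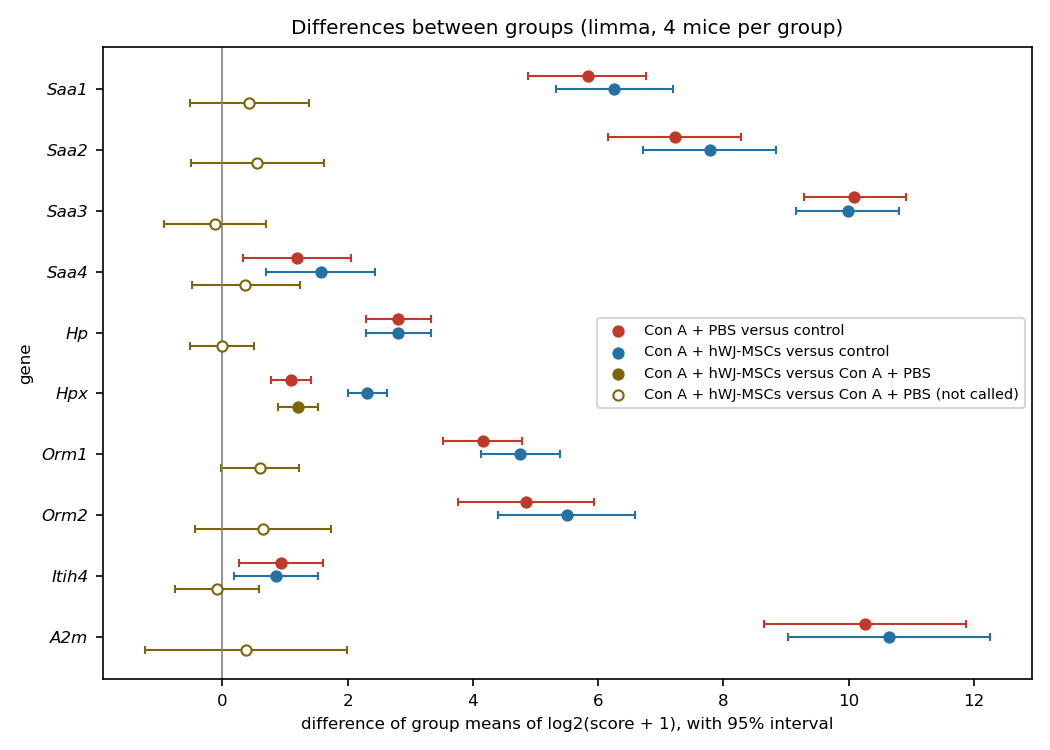
Differences of the group means of log2(score + 1) for the 10 genes with 95% intervals from limma (4 mice per group); filled points were called and open points were not. Points of both comparisons with the control group lie right of 0 for every gene, and in the comparison of both Con A groups Hpx alone is filled, at 1.21.

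Mouse 4 of the Con A + PBS group stood apart for these genes. It was lowest on its own in 6 of the 10 (Saa1, Saa2, Saa3, Saa4, Orm2 and A2m), against 36.1% of all genes, and its mean correlation with its group was the lowest of the 12 mice, 0.943 against up to 0.972. Control mouse 4 was lowest on its own in 7 of the 10, against 21.3% of all genes, and highest in A2m. Without Con A + PBS mouse 4 the log2 differences from the control group were 6.26 for Saa1, 7.78 for Saa2, 10.54 for Saa3 and 5.34 for Orm2, and all 10 genes were still called.

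Among genes that stand upstream of these proteins, those of ligands and receptors went both ways after Con A. Of 21 listed, 14 were in the table, of which 8 were called higher, 4 lower and 2 not. Lif, an interleukin 6 family cytokine, had a median score of 0.5 in the control group (range 0 to 2) and 61 in the Con A + PBS group (42 to 84), and Lif rose by 5.29 on the log2 scale (2.71 with a pseudocount of 10). Osmr, the receptor subunit for oncostatin M, rose by 2.71. The interleukin 6 receptor gene Il6ra was called at -0.64, a call lost in 6 of the 12 fits that left out 1 mouse (range -0.77 to -0.41, limma adjusted p up to 0.139; control mouse 2 or 4, Con A + PBS mouse 1, 2 or 3, or Con A + hWJ-MSCs mouse 1), with limma run without its trend and at a fold change above 2. Il6st, which encodes gp130, was not called (0.16). With the cells, 1 of the 14 was called higher and 3 lower. Lif fell by 2.28 on the log2 scale (limma adjusted p = 0.0476), to a median score of 13, but its call held in 5 of the 12 fits without 1 mouse and was lost without any 1 of the 4 Con A + PBS mice or of Con A + hWJ-MSCs mice 1 to 3. Leaving out 1 mouse moved the number of calls with the cells in every pathway list, and for these 14 genes it ran from 0 to 5. The losses were greatest without Con A + PBS mouse 1 or Con A + hWJ-MSCs mouse 3, each of which left 7 calls over all genes in place of 969, and without Con A + hWJ-MSCs mouse 2, which left 18.

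Of 18 kinases and transcription factors listed, 17 were in the table, and after Con A 7 were called higher and 1 lower. Stat3 rose by 1.00 and the NF-κB subunit gene Relb by 1.71 on the log2 scale, the call of Stat3 being lost at a fold change above 2. Cebpb, the gene of a C/EBP factor, was not called (0.30). With the cells 0 of the 17 were called higher and 4 lower by limma. Cebpb, with a median score of 1768.5 in the Con A + PBS group and 877 with the cells, fell by 1.23 (SE 0.33, limma adjusted p = 0.0375), and Relb fell by 1.00. Without 1 mouse 0 to 6 of the 17 were called. The call of Cebpb held in 6 of the 12 fits (lost without Con A + PBS mouse 1, 3 or 4 or Con A + hWJ-MSCs mouse 1, 2 or 3, and also with only the 8 mice compared) and that of Relb in 9 (lost without Con A + PBS mouse 1 or Con A + hWJ-MSCs mouse 2 or 3). Stat3 was not called with the cells (-0.69, limma adjusted p = 0.0579).

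Inhibitors that limit these pathways formed a further list. All 12 listed were in the table, and after Con A 8 were called higher and 2 lower. Socs3, an inhibitor of gp130 signaling, rose by 2.15, and the interleukin 1 antagonists Il1rn and Il1r2, a secreted blocker and a decoy receptor, rose by 5.54 and 6.07 on the log2 scale. Il1r2 had control scores of 0 to 4, and with a pseudocount of 10 the values were 5.33 for Il1rn and 3.33 for Il1r2. Il1r2 is also 1 of the 10 monocyte and neutrophil markers of the table, all of which were called higher, and is counted in both lists. With the cells 4 of the 12 were called lower, among them Il1rn, which fell by 1.20. Without 1 mouse 1 to 4 were called, and the call of Il1rn held in 9 of the 12 fits (lost without Con A + PBS mouse 1 or Con A + hWJ-MSCs mouse 2 or 3). Socs3 was not called with the cells (-0.49).

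Of 40 other genes known to rise in the acute phase, 36 were in the table, of which 20 were called higher and 7 lower after Con A. Among the 7 was C3 (-0.91), at place 2 of ladder 7 behind Hp in every Con A + PBS mouse. In control mouse 1 C3 held place 2 as well, and in control mice 2 to 4 place 1, so its call can be a displacement by Hp. Lcn2 rose by 5.89 and Serpina3n by 5.07 on the log2 scale. The largest score was reached by Lcn2 in 1 Con A + PBS mouse and by Serpina3n in 2. Cd14, the lipopolysaccharide co-receptor gene, rose by 6.37. With the cells 3 of the 36 were called lower and 0 higher. Without 1 mouse 0 to 5 were called. Cd14 fell by 1.33, a call lost without Con A + PBS mouse 1 or Con A + hWJ-MSCs mouse 3, whereas Lcn2 (-0.64) and Serpina3n (-0.60) were not called. Without 1 mouse the difference of Lcn2 ran from -0.82 to -0.08. The 10 plasma protein genes are not part of this list.

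Genes of proteins known to fall in the acute phase mostly had lower scores after Con A. All 19 were in the table, and 12 were called lower and 1 higher, with a median log2 fold change of -1.42. A gene on a ladder also drops when others rise past it. Apoe and Apoa1 held places 1 and 2 of ladder 8 in every control mouse. In Con A + PBS mice 1 to 3 Saa2, Saa1 and Lcn2 stood above Apoe, and Apoa1 was called at -1.73. How much of such a call is a fall of the gene itself was not tested. Serpina6, the gene of corticosteroid-binding globulin, fell by 5.25, Igfals, which stabilises circulating IGF, fell by 3.66 and the transthyretin gene Ttr fell by 1.55 on the log2 scale. Control mouse 1 had the largest score for Ttr, and without it Ttr fell by 0.99. Alb, the albumin gene, had the largest score in all 12 mice, so no change in it can be seen. With the cells 1 of the 19 was called higher and 1 lower, the latter being Trf, and 1 to 4 were called without 1 mouse. Ttr (0.72) and Igfals (1.04) were not called.

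A list of relatives of Itih4, A2m and the orosomucoids, which also held Mmp2 and Vtn, went both ways. Of 13 listed 11 were in the table, of which 2 were called higher and 5 lower after Con A. Itih3 and Orm3 are counted both here and among the other genes known to rise. Mug2, a murinoglobulin gene of the alpha-macroglobulin family, fell by 1.96, while Pzp, another gene of that family, rose by 1.48 to the largest score in all 4 mice, a call lost without any 1 of the Con A + PBS mice and with only the 8 mice compared. Control mouse 4 already had the largest score for Pzp, and without control mouse 1 the difference was 0.80. With the cells 2 of the 11 were called higher, and Mug2 rose by 0.86. Without 1 mouse 0 to 3 were called, and the call of Mug2 held in 4 of the 12 fits (it was lost without control mouse 2 or 3, Con A + PBS mouse 1, 3 or 4, or Con A + hWJ-MSCs mouse 1, 2 or 3). It was also lost with only the 8 mice compared and at a fold change above 2. Of 15 genes of receptors and clearance 13 were in the table, of which 4 were called higher and 3 lower after Con A. Cd163, the macrophage receptor for haptoglobin-hemoglobin complexes, fell by 3.68, from a median score of 211.5 to 14. It did so along with the macrophage markers, of which 11 of 12 were called lower (median -2.25), and their part in the fall of Cd163 was not tested. Lrp1, a receptor for hemopexin-heme and for alpha-2-macroglobulin complexes, was not called (0.10). Hmox1, which encodes the heme-degrading enzyme heme oxygenase 1, rose by 2.04, and Tlr2, a receptor of innate immunity that serum amyloid A can engage, by 2.96. With the cells 1 of the 13 was called, Tlr2, which fell by 1.49, and Hmox1 was not (-1.24, limma adjusted p = 0.0552). Without 1 mouse the difference of Hmox1 ran from -1.54 to -0.75 (limma adjusted p up to 0.126). The call of Tlr2 held in 9 of the 12 fits and was lost without Con A + PBS mouse 1 or Con A + hWJ-MSCs mouse 2 or 3, and 0 to 4 of the 13 were called without 1 mouse.

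**Figure D4:**
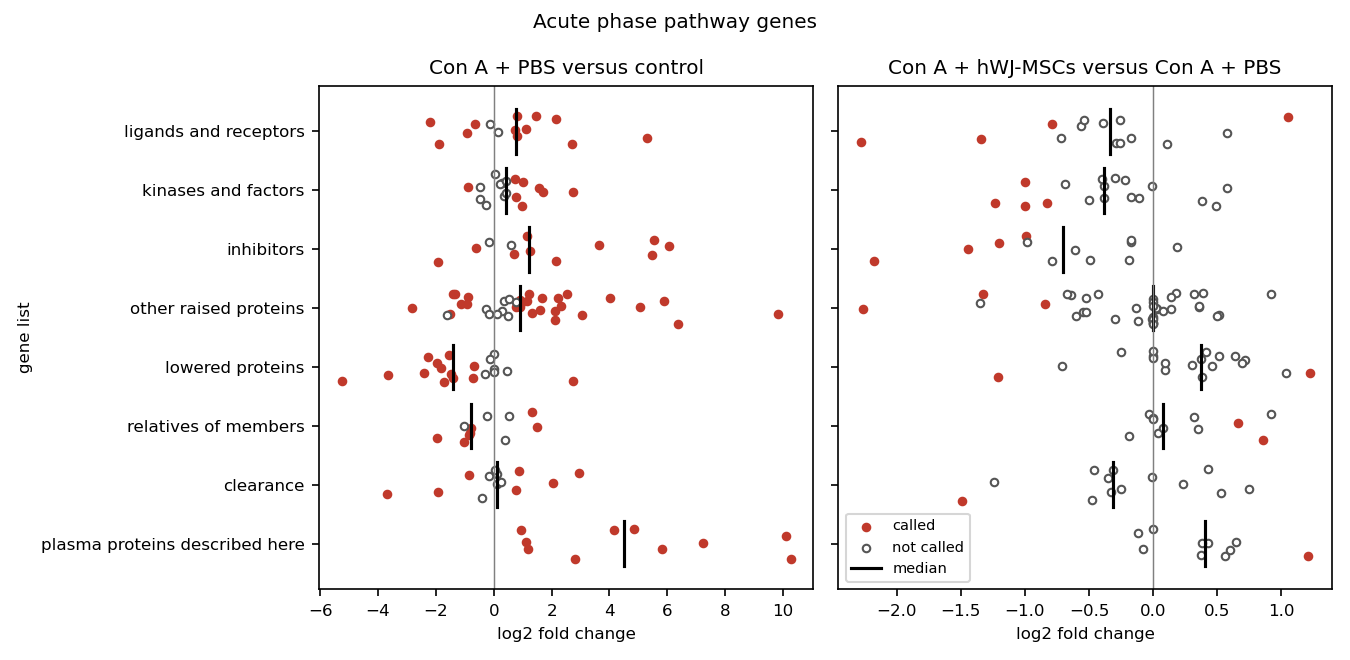
Log2 fold changes of single genes (points) in 7 lists of the acute phase pathway and in the 10 plasma protein genes, with the list median as a black line, for both steps of the design; red points were called by limma and open points were not. After Con A the 10 plasma protein genes have a median of 4.50, and with the cells 1 of them is red.

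The labelled tissue was checked by its markers. All 16 hepatocyte markers were in the table, with summed scores of 1324794 to 1484578 in the control group, 1157126 to 1196257 in the Con A + PBS group and 1169772 to 1227185 with the cells, and after Con A 2 were called higher and 8 lower. Alb (341028) and Cps1 (147960) had the same score in every mouse, and Fgb was at 341028 in every mouse given Con A. These sums therefore say little of hepatocyte content. Of 13 macrophage markers 12 were in the table, of which 11 were called lower and 1 higher, and their sum ran from 6871 to 10680 in the control group and from 2132 to 3166 after Con A. Of 13 monocyte and neutrophil markers 10 were in the table, and all 10 were called higher, with sums of 288 to 439 in the control group, 1896 to 2725 after Con A and 1525 to 2748 with the cells. Of these, S100a8, S100a9, Retnlg, Ly6c2, Ngp, Cxcr2 and Il1r2 scored 28 or less in every control mouse. The table holds only genes that reached 64 in at least 2 mice. These markers are thus present only through mice given Con A, and their calls as higher were largely set by that filter. The rise of Saa3, Lcn2, Cd14, Tlr2, Il1rn and Il1r2 went along with that of the monocyte and neutrophil markers, and the part of these cells in it was not tested. With the cells 0 of the macrophage and 0 of the monocyte and neutrophil markers were called by limma, while 2 and 1 had an unadjusted p below 0.05. Up to 3 macrophage markers were called without Con A + hWJ-MSCs mouse 1 or 4, and 1 monocyte and neutrophil marker without control mouse 4.

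The genes most like single members were named by Pearson's r of log2(score + 1) over the 12 mice, as a description, since the 3 groups and the shared ladders enter every such value. For Saa1 they were Il18bp (0.993), Apol10b (0.989) and Ifitm2 (0.987), and for Saa3 Ly6a (0.996), Irf7 (0.993) and Gzmb (0.993). Orm2 was closest to Dynll1 (0.988), Bsg (0.987) and Prg4 (0.981), and A2m to Gpx3 (0.981), Ms4a3 (0.979) and Fabp4 (0.978). Among the members compared in this way, those that changed least after Con A had lower values. Saa4 reached 0.974 with G630090E17Rik, 0.952 with Praf2 and 0.951 with Itfg1, and Itih4 reached 0.932 with Cisd2, 0.929 with Mcm7 and 0.920 with Uhrf1. Saa2, Hp, Hpx and Orm1 were left out, because in at least 1 group all of their mice were at the largest score.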

How the data were processed

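Total RNA of 12 livers was made into poly(A) libraries and sequenced as paired-end reads. The submitters' processing notes name Bowtie2 2.2.1, RSEM 1.2.18 and mm10; the normalization is not given in the sources used here. The authors deposited a whole-number score per gene and mouse, already normalized, with totals of 17649654 to 17657159. Raw counts were not analysed here, so depth and counting error are unknown. Every gene reached 64 in at least 2 mice, so genes below this had been left out. Genes below 64 in every control mouse, among them Saa3, A2m, Lif, Il1r2 and Cd14, are thus present only through mice given Con A. A call of such a gene as higher than in the control group was largely set by this filter. The ladders of scores were read from the values.

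The log2(score + 1) of all 11289 genes was modelled in R 4.3.3 with limma 3.58.1 (lmFit, then eBayes with a trend) over the 12 mice, with the group as the only term. A call needed a fold change above 1.5 and an adjusted p (Benjamini-Hochberg, over all genes) below 0.05. The count tool that the study names was not used, since it needs counts. Scripts were tested on simulated data. Exact permutation tests used scipy 1.17.1, with pandas 2.3.3, numpy 2.4.6 and matplotlib 3.10.9 in Python 3.11.15.

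Named were the 10 genes, 12 pathway genes chosen by name (Cebpd is not in the table under that symbol) and the 2 called genes with the largest Con A change in each pathway list. The ladder neighbours Apoe, Apoa1, C3, Apoa2, Trf, Serpina1a and Serpina1b were named after their values were seen. So were single cell type markers, Mmp2, Vtn, Itih3 and Orm3, given as limits of their lists. Not every gene named by this rule is reported here. The members and lists were chosen with earlier results of these data known. No label says more of how the mice of a group were kept apart, so p-values measure the spread between these samples. Tried instead were largest scores set to missing, normal scores of ranks, each mouse left out, a replicate block, a pseudocount of 10, genes of mean score 100 or more, median centring, no trend in eBayes, the 8 mice of a comparison alone and a fold change above 2.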

Additional observations from a re-analysis of the deposited data

Results flagged for a closer look

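Of 30 groups of 4 scores (10 genes in 3 groups), 22 were tested for a single mouse far from the others (the other 8 held 4 equal scores), and 7 had such a mouse. Chance gives about 1 in 20. In 6 of the 7 the other 3 mice held the same place on a ladder, so any other score stands out. Con A + PBS mouse 4 was the low one for Saa1 (44442), Saa2 (72682), Saa3 (20871) and Saa4 (1950). Con A + hWJ-MSCs mouse 4 was low for Saa3 (29668), control mouse 4 for Hpx (57910) and Con A + hWJ-MSCs mouse 1 for Itih4 (58067).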

How the results depend on the processing

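All 10 genes were called after Con A in the main analysis, and 9 to 10 in the fits that left out 1 mouse. With the largest scores set to missing, Hp could not be tested, and Saa2 kept only mouse 4 of the Con A + PBS group. Saa1, Saa3, Saa4, Hpx, Orm2, Itih4 and A2m kept all mice of both groups and were called. Orm1 was called with only Con A + PBS mice 1 and 4 left, at equal scores. Between the Con A groups 1 gene was called, also in each fit without 1 mouse, but 0 of the 6 testable genes with the largest scores missing, since Hpx cannot then be tested. Between the Con A + hWJ-MSCs and control groups 10 were called, 9 to 10 without 1 mouse, and 6 of 6 testable with the largest scores missing. Over all genes, a fold change above 2 gave 2391 calls in place of 4379 after Con A, 353 in place of 969 between the Con A groups and 1539 in place of 3015 between Con A + hWJ-MSCs and control. Normal scores, called on the adjusted p alone, gave 1561 and 4596 for the last 2 of these. Leaving out 1 mouse gave 7 to 1575 calls between the Con A groups, with 7 without Con A + PBS mouse 1 or Con A + hWJ-MSCs mouse 3, 18 without Con A + hWJ-MSCs mouse 2, 285, 563 and 1575 without Con A + PBS mouse 4, 3 and 2, and 506 without Con A + hWJ-MSCs mouse 1; the cause was not tested. The background shares for that comparison move with these counts. The sign changed, with no call on either side, in fits without 1 mouse. Between the Con A groups Saa3 ran from -0.5661 (without Con A + PBS mouse 4) to 0.1266 (without Con A + hWJ-MSCs mouse 4), with 0.0342 without Con A + PBS mouse 1, 2 or 3. Saa4 ran from -0.1414 (without Con A + PBS mouse 4) to 0.5689, A2m from -0.0111 (without Con A + hWJ-MSCs mouse 4) to 0.7863 and Cd163 from -0.4811 to 0.0472 (without Con A + hWJ-MSCs mouse 4). After Con A, Lrp1 ran from -0.1537 (without control mouse 1) to 0.2564. The call of Itih4 after Con A was lost at a fold change above 2, and that between Con A + hWJ-MSCs and control also with only the 8 mice. Same-numbered mice are different animals, and their deviations correlated by -0.118 to 0.375. The highest values, 0.375 for mouse 2 and 0.244 for mouse 4, were between the Con A groups. The labels do not say what the numbers stand for, and whether they mark a shared batch was not tested. With the replicate block 10, 1 and 10 of the 10 genes and 4429, 1297 and 3080 of all genes were called in the 3 comparisons. Of the pathway genes named, Lif lost its call between the Con A groups under the block, and Igfals, Osmr and Stat3 gained one. Median centring could change no value, because every mouse already had the same median score, so it was not a check. Unknown depth limits what low scores such as those of A2m in the control group can show.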

Other observations

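Other cell type markers gave the following counts after Con A. Of 10 endothelial markers 1 was called higher and 6 lower, and of 10 stromal markers 3 were called lower and the other 7 were not called. Of 14 T and NK cell markers 5 were in the table and all 5 were called higher, and of 7 adipocyte markers 2 were listed, 1 called higher and 1 lower, too few of both lists to describe these cells. The 5 T and NK cell markers scored 31 or less in every control mouse, and the adipocyte marker called higher 12 or less. Genes had to reach 64 in at least 2 mice, so these calls as higher were largely set by that filter.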
